A study of Homo sapiens with 2 samples.

Results

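The genes described here are 10 genes that control entry into mitosis: the kinase gene CDK1, the cyclin genes CCNA2, CCNB1, CCNB2 and CCNF, the inhibitory kinase genes WEE1 and PKMYT1, and the phosphatase genes CDC25A, CDC25B and CDC25C. They were picked by symbol, and their rows were taken from a list of regions enriched in RNA recovered with an antibody to YTHDF3. Of the 10 genes, 6 had at least 1 listed region (a peak) and 4 had none. Their 15 peaks were among 18466 peaks under 9266 gene names. The data came from KYSE30 cells, an established human cell line from a squamous carcinoma of the esophagus, grown with 10% serum and given no treatment. RNA immunoprecipitation (RIP) with the antibody gave 1 library, and the input RNA gave 1. With 1 library of each kind no value has a replicate error, and each comparison describes these libraries only. A control antibody or cells without YTHDF3 were not analysed here, so recovery through YTHDF3 cannot be told apart from nonspecific recovery. No read counts were used, so read depth is unknown and the level of each RNA in the cells is not given. For the same reason squamous cell markers could not be checked as levels.

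CDK1 bound to a B-type cyclin is the kinase that drives cells into mitosis. WEE1, mainly in the nucleus, and PKMYT1, at internal membranes, hold CDK1 inactive by phosphorylating it, and the CDC25 phosphatases remove those phosphates. YTHDF3 is a cytoplasmic protein that binds N6-methyladenosine (m6A) in RNA and has been linked to translation and decay of the RNAs it binds. The series addresses which mRNAs it binds in esophageal cancer cells, with mitotic genes in view.

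Within these 10 genes, the kinase gene CDK1 and the cyclin genes CCNA2, CCNB1 and CCNB2 had no listed peak. The inhibitory kinase genes WEE1 and PKMYT1 and the phosphatase genes CDC25A, CDC25B and CDC25C each had at least 1, CDC25C only in a region shared with another gene. So did CCNF, a cyclin that works as the F-box subunit of a ubiquitin ligase and not as an activator of CDK1. Relatives outside the set went both ways. Against the division, the B-type cyclin gene CCNB3 had a peak and the inhibitory kinase gene WEE2 had none. The CCNB3 peak stood at 11.3, with an adjusted p of 0.0407, and covered 10.9% of the gene. Along the division, the cyclin gene CCNA1 and the kinase gene CDK2 had no peak. The division was seen after the values were known, and no test of it was possible with these libraries. The share with a peak was 60.0% of the 10 genes (26.2 to 87.8, exact 95% interval for counting error only), beside 40.0% of 19974 protein-coding genes. Since the interval holds the background share, the count alone does not set these genes apart. With an adjusted p under 0.05 the count was again 6 of 10, beside 34.0% of protein-coding genes. With a fold enrichment of at least 5.02, the median of all peaks, it was 4 of 10 (CCNF, WEE1, PKMYT1 and CDC25B), beside 28.7%.

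**Figure D1:**
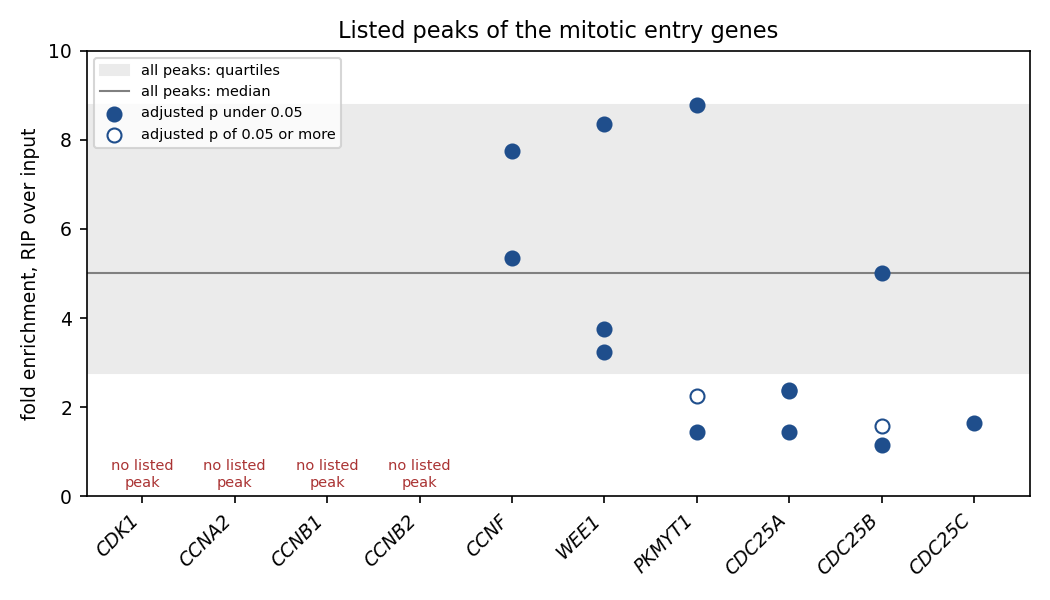
Fold enrichment (RIP over input, the authors' values) of each listed peak, by gene; each point is 1 peak, filled where its adjusted p was under 0.05, with the median (line) and quartiles (band) of all 18466 peaks. The highest peaks of CCNF, WEE1 and PKMYT1 lie between 7.74 and 8.78, all CDC25A and CDC25C peaks lie at or below 2.39, and CDK1, CCNA2, CCNB1 and CCNB2 have no peak.

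The fold enrichment of a peak is the authors' ratio of RIP over input, and the p and adjusted p beside it are theirs as well. The test behind that p is not given in the sources used here, and it rests on 1 library of each kind. Over all peaks the fold enrichment ranged from 1.03 to 87.8, with quartiles of 2.76 and 8.78. The 15 peaks described here ranged from 1.15 to 8.78, with a median of 2.39, and 5 of them stood at or above the median of all peaks. Another 5 were under 2-fold, where 12.7% of all peaks lay. An adjusted p of 0.05 or more was listed for 2 of the 15, in PKMYT1 and CDC25B, and for 25.6% of all peaks. The best peak per gene had a median of 6.38 over the 6 genes, beside 7.53 over the 7997 protein-coding genes with a peak. With the median over each gene's peaks in place of its best peak, these values were 2.315 and 5.75.

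CCNF was covered almost from end to end. Its gene lies on chromosome 16 from 2429447 to 2458854 of hg38, on the plus strand. The larger peak ran from 2429394 to 2457417, with 7.74-fold enrichment and an adjusted p of 6.31e-79. The other, from 2457477 to 2458854, had 5.35-fold enrichment and an adjusted p of 2.19e-10, and it ended on the last base of the gene. The regions left a gap of 59 bases, and they covered 99.8% of the gene. Coverage that high was found in 7.22% of protein-coding genes with a peak, whose median was 66.7%. A region of this kind spans introns, and which exons gave the reads cannot be read from its ends. The 3′ end of CCNF also lies under a long noncoding RNA gene, LOC105371050 (2456066 to 2459978). That stretch holds the whole of the smaller peak and the end of the larger. Reads of the genes cannot be told apart there by position.

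WEE1, the nuclear kinase that inhibits CDK1, had 3 peaks on chromosome 11, all with an adjusted p under 0.05 and none overlapping the peak of another gene. The first ran from 9573741 to 9574847, at 3.23-fold with an adjusted p of 3.63e-08. The second, from 9575026 to 9577889, had the largest fold enrichment of the gene at 8.36, with an adjusted p of 1.45e-10. The third, from 9581490 to 9589558, had 3.76-fold enrichment and the smallest adjusted p of the gene, 3.98e-14. The strongest ratio thus lay in the first part of the gene, between 8.31% and 25.9% of its 16316 bases from the 5′ end. The peak with the smallest p lay in the 3′ part, from 47.9% to 97.4%. Together the regions covered 73.8% of the gene.

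PKMYT1, the membrane-bound kinase that also inhibits CDK1, had the largest fold enrichment of the set, but most of that region lay outside the gene. The peak ran on chromosome 16 from 2968102 to 2974137 on the minus strand, at 8.78-fold with an adjusted p of 2.00e-77. The gene ends at 2972808 on its 3′ side, so 4706 of the 6036 bases lay beyond it and 22.0% of the region was inside. Of 17321 peaks matched to a gene, 2.55% had most of their span outside it. On the plus strand, 74.0% of the same region was also listed for other genes. PAQR4, a gene for a membrane receptor family protein, had peaks of 28.9 (2971154 to 2973489) and 16.8 (2969245 to 2971095). KREMEN2, which codes for a receptor of Dickkopf Wnt antagonists, had a peak of 11.3 that shared 282 bases. The authors' strand setting is not given in the sources used here, and whether reads of PAQR4 contributed to the PKMYT1 value was not tested. Within the gene body PKMYT1 had peaks of 1.44 (2975346 to 2975704), with an adjusted p of 0.00479, and 2.26 (2976776 to 2976955), with an adjusted p of 0.0776. Without the shared region its best fold enrichment was therefore 2.26, in place of 8.78.

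**Figure D2:**
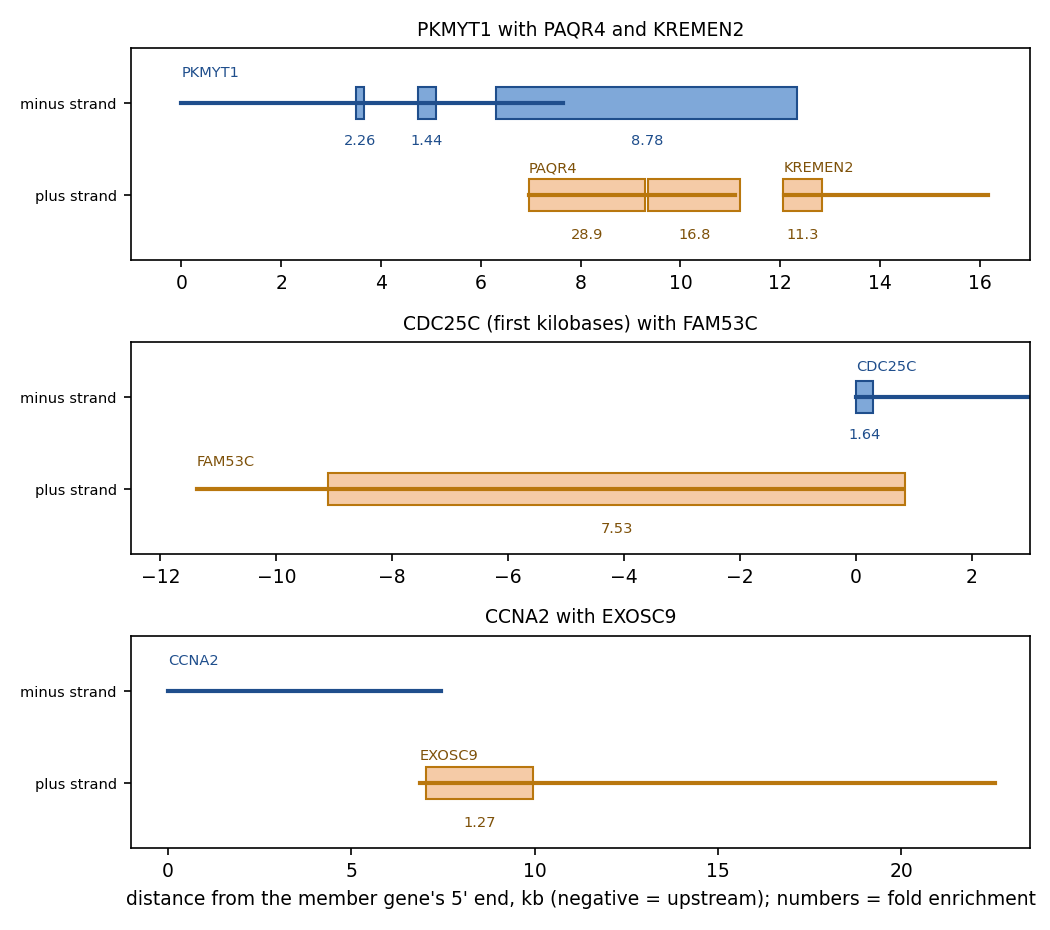
Genes (lines) and listed peaks (boxes, with the fold enrichment) of PKMYT1, CDC25C and CCNA2 on the minus strand and of their neighbours on the plus strand, against distance in kb from the 5′ end of the first gene; only neighbour peaks that overlap the gene or its peaks are drawn. The PKMYT1 peak of 8.78 covers PAQR4 peaks of 28.9 and 16.8, the CDC25C peak of 1.64 lies inside a FAM53C peak of 7.53, and CCNA2 is touched by an EXOSC9 peak of 1.27.

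Of the 7 peaks of the CDC25 genes, 6 were under 2.5-fold, beside 19.8% of all peaks, and the remaining 1, in CDC25B, stood at the median of all peaks. CDC25A, the phosphatase that acts from the G1/S transition onward, had 3 peaks on chromosome 3 that covered 78.5% of the gene. Counted from its 5′ end, they were listed at 2.39 (48182993 to 48188402), 2.37 (48165877 to 48177875) and 1.44 (48158549 to 48165691). All 3 had an adjusted p under 0.05, the smallest, 4.57e-08, in the peak with the lowest fold enrichment. A best fold enrichment of at least 2.39 was listed for 91.0% of protein-coding genes with a peak.

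CDC25B, which acts on CDK1 early in mitotic entry, had its main peak in the middle of the gene, on chromosome 20 from 3796064 to 3797669, at 5.02-fold with an adjusted p of 7.94e-06. Its other peaks were weak, at 1.15-fold over 3801363 to 3802056, with an adjusted p of 0.0490, and at 1.58-fold over 120 bases from 3805316 to 3805435, with an adjusted p of 0.131. No peak lay in the first 9113 bases of the gene, and 12.6% of it was covered.

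CDC25C, whose product activates CDK1 with cyclin B at the G2/M transition, had 1 peak of 299 bases on chromosome 5 from 138338057 to 138338355. Its fold enrichment was 1.64, with an adjusted p of 0.0316. All 299 bases also lay in a plus-strand peak of FAM53C, from 138337511 to 138347460, at 7.53-fold with an adjusted p of 1.26e-18. FAM53C starts at 138337557, inside CDC25C. Whether its reads contributed to the CDC25C peak was not tested, and without regions shared in this way CDC25C had no peak. The region covered 0.563% of the gene, and 97.2% of protein-coding genes with a peak had a best fold enrichment at least as large.

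**Figure D3:**
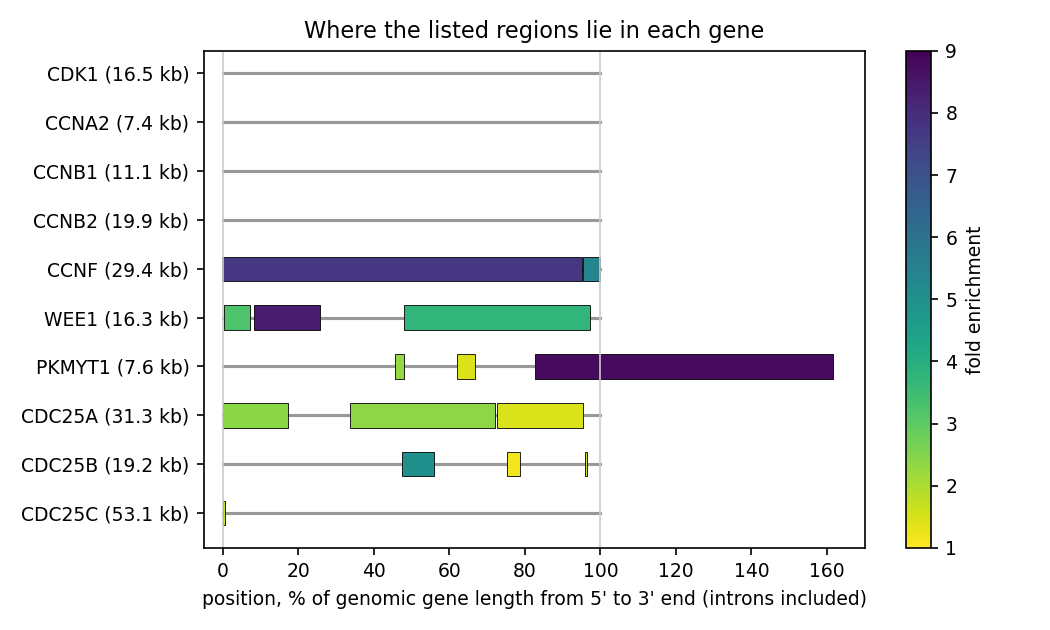
Listed regions along each gene, as % of the genomic gene length (introns included) from the 5′ end at 0 to the 3′ end at 100, coloured by fold enrichment. CCNF is covered over 99.8% of its length, the PKMYT1 peak of 8.78 runs past the 3′ end to 162%, and CDC25C is covered over its first 0.563% only.

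Some of these regions began close to the start of the gene. With 15 peaks, the counts do not set them apart from all peaks matched to a gene. Of the 15 peaks, 4 had their upstream boundary no more than 100 bases from the start of the gene, in CCNF, WEE1, CDC25A and CDC25C, as did 17.3% of 17321 peaks matched to a gene. Only 1, in CCNF, had its downstream boundary as close to the end of the gene, as did 14.4% of matched peaks. The WEE1 region began 71 bases inside the gene and the CDC25A region 15 bases inside. The CDC25C region, which lies inside a FAM53C peak, began on the first base, and the CCNF region 53 bases before the RefSeq start. A boundary exactly on a gene limit was not particular to these genes. Among matched peaks, 786 started on the lowest chromosome position of their gene and 702 ended on the highest.

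The sequences at 4 start sites are shown to place the boundary of the listed region, from 100 bases before the RefSeq start to 30 bases from it onward, 5′ to 3′ on the strand of the gene (RefSeq, GRCh38.p14). Capitals mark the bases inside the region. CCNF is chr16:2429347-2429476 (plus strand), CDC25A chr3:48188388-48188517 (minus), CDC25C chr5:138338326-138338455 (minus) and CDC25B chr20:3796210-3796339 (plus).
CCNF: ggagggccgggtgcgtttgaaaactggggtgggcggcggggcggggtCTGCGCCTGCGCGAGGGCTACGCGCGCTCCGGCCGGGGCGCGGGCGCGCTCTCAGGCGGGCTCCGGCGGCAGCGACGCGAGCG
CDC25A: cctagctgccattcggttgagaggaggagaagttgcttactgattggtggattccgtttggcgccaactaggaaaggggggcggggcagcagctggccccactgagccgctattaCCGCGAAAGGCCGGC
CDC25C: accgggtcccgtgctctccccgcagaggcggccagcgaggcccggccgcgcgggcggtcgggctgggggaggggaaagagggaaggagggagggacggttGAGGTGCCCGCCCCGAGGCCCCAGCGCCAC
CDC25B: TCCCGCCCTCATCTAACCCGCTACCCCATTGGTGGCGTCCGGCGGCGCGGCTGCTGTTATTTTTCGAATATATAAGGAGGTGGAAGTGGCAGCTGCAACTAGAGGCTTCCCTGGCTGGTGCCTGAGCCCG

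In CCNF, 53 of the 83 capitals lay before the RefSeq start, in a stretch rich in G and C (80.8% over the 130 bases). In CDC25A the first 15 transcribed bases were outside the region, and in CDC25C the boundary fell exactly on the start. CDC25C has a RefSeq start 14 bases further in, inside the region, and others 6478 bases and more into the gene, which the region did not reach. For CDC25B the site shown is an internal start at 3796310, which lay 246 bases into the region listed at 5.02, while the outermost start at 3786951 was in no region. Common forms of the sequence in which m6A is placed were searched on the gene's strand in the first 50 transcribed bases. The words were GGACT (in 4.90% of 35116 RefSeq windows of the same length), GGACA (4.86%), GGACC (5.39%), AGACT (4.23%) and AAACT (3.38%), and 21.0% of the windows held at least 1. None of the 5 was found at these 4 sites. At other RefSeq starts of the same genes, outside any listed region, GGACA was found at the outermost CDC25B start and AGACT at a CDC25C start at 138331804. A search without a match says only that these letters are not in those 50 bases. The sequence of the rest of each region was not analysed here.

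The genes without a peak are the best known part of the switch: CDK1 itself, CCNB1 and CCNB2, its B-type partners, and CCNA2, the cyclin of S and G2 phase. For CDK1, on chromosome 10 from 60778331 to 60794852, the nearest listed peak of any gene was 74586 bases away. For CCNB1 and CCNB2 it lay 8114 and 8137 bases away. CCNA2 overlapped a plus-strand peak of EXOSC9, a gene of the RNA exosome, over 408 bases at its 3′ end, at 1.27-fold with an adjusted p of 0.0209. Counting any peak over the gene regardless of its name would thus give 7 of 10 in place of 6. Absence from the list gives no ratio for these genes, neither high nor low.

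Members with a peak (7639 to 53091 bases) and without one (7440 to 19900 bases) overlapped in gene length, but the longest members all had a peak. Protein-coding genes were ranked by genomic length and cut into 10 equal groups, numbered from 1 for the shortest. The share with a peak ranged from 14.8% in group 1 to 53.5% in group 9. PKMYT1 (7639 bases) and CCNA2 (7440 bases) were both in group 3, where 34.4% of genes had a peak. WEE1 (16316 bases) and CCNB1 (11096 bases) were in group 4, at 37.4%. CDC25B (19165 bases) was in group 5, at 41.8%, with CDK1 (16522 bases) and CCNB2 (19900 bases). Of the remaining genes, CCNF and CDC25A lay in group 6 (45.6%) and CDC25C in group 8 (48.0%). These are genomic lengths with introns, and transcript length was not used.

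**Figure D4:**
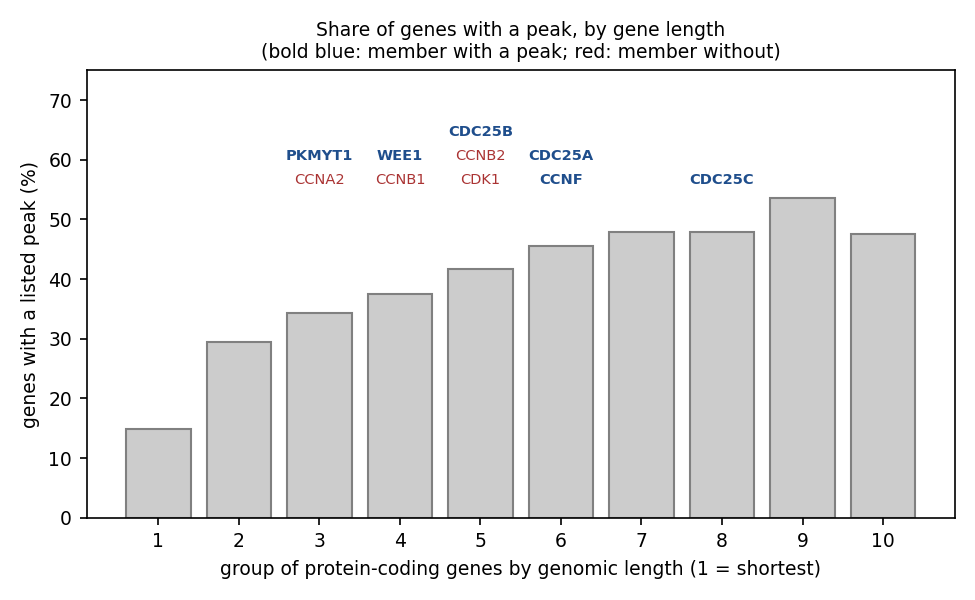
Share of protein-coding genes with a listed peak (bars, %) in 10 groups of genomic gene length, from 14.8% in group 1 (shortest) to 53.5% in group 9; the names above the bars are the 10 mitotic entry genes. Groups 3, 4 and 5 each hold members with a peak (bold blue) and without one (red).

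Fold enrichment and p ordered these genes differently. By best fold enrichment, PKMYT1 (8.78), WEE1 (8.36) and CCNF (7.74) were followed by CDC25B (5.02), CDC25A (2.39) and CDC25C (1.64). The first 3 were close to the middle of protein-coding genes with a peak, of which 44.5% to 46.2% had a best fold enrichment at least as large. Without an error, the order within these 3 is not established. By smallest p, CCNF (7.94e-81) and PKMYT1 (2.51e-79) stood far above WEE1 (3.98e-15) and CDC25A (6.03e-09). A p that small was listed for 9.90% of protein-coding genes with a peak in the case of CCNF and for 10.1% in that of PKMYT1, whose region PAQR4 shares. For WEE1 it was 36.5%, for CDC25A 46.8%, for CDC25B 52.9% and for CDC25C 83.2%. A fold enrichment listed as a whole multiple of 1.2546, as 50.3% of all peaks were, occurred in 3 of the 15 peaks, counted within 0.0051 for values under 10 and within 0.051 above: 3.76 in WEE1, 5.02 in CDC25B and 8.78 in PKMYT1.

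**Figure D5:**
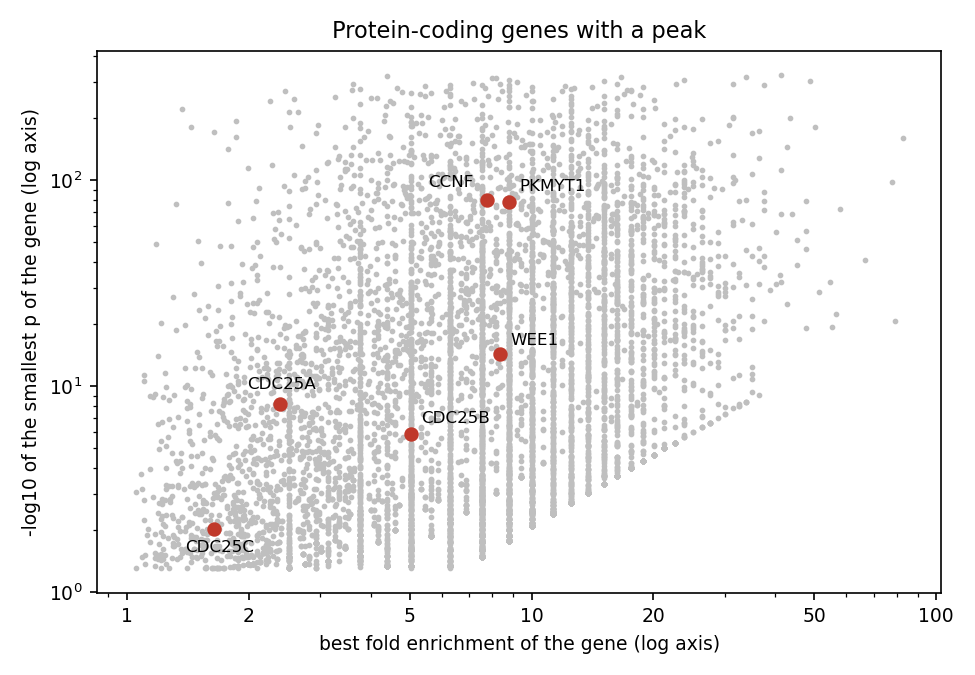
Best fold enrichment (x, log axis) against -log10 of the smallest listed p (y, log axis) of each protein-coding gene with a peak; 142 genes whose p was listed as 0 are left out. CCNF and PKMYT1 stand high on the p axis with middling fold enrichments of 7.74 and 8.78, and CDC25C is near the lower left at 1.64.

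Beyond the 10 genes, a list of 50 other genes of mitotic entry was examined, and 22 had a peak (44.0%, 29.99 to 58.75), beside the 40.0% of all protein-coding genes. The median best fold enrichment of the 22 was 5.07, beside 7.53. For the peak with the smallest p of each gene it was 3.22, beside 6.27. With a fold enrichment of at least 5.02 the count was 13 of 50, or 26.0%, beside 28.7%. Genes of the G2/M transcription programme, 6 of its factors and its target GTSE1, had a peak in 6 of 7 cases (42.1 to 99.6%, exact 95% interval), beside 40.0%. Of the roles on the list this one had the highest share, and the list was divided by role with earlier results of these data known. Its 6 genes with a peak lay in length groups 5 to 9, where 41.8% to 53.5% of genes had one. LIN37 lay in group 2, at 29.4%. Whether gene length accounts for the share was not tested. FOXM1, the forkhead factor of this programme, had 1 peak of 5.12 with an adjusted p of 1.00e-128. MYBL2 had a best fold enrichment of 6.27, but its peak with the smallest p was listed at 1.99. LIN9, LIN52 and LIN54, which code for subunits of the MuvB complex, stood at 8.78, 5.02 and 5.02. The adjusted p of these peaks was 0.024, 0.019 and 0.269. The LIN9 region covered 0.553% of its gene, and the peak with the smallest p was listed at 2.35 in LIN52 and 2.01 in LIN54. LIN37, a further subunit gene, had no peak. GTSE1 stood at 11.3 with an adjusted p of 0.0407, and its peak with the smallest p was listed at 3.21.

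Ubiquitin ligase genes that control WEE1, CDC25A or the cyclins had a peak in 5 of 7 cases (29.0 to 96.3%, an interval that holds the background share of 40.0%). CUL1, the scaffold of the ligase that CCNF joins, had the largest best fold enrichment of the 50 genes at 13.0, and FBXO5, an inhibitor of the anaphase-promoting complex, stood at 6.31. Both regions shared bases with another gene's peak. FZR1, an activator of the anaphase-promoting complex, had 7.53. The substrate receptors FBXW11 and BTRC of the ligase that marks WEE1 and CDC25A stood at 5.65 and 2.14. CDC20 and SKP1 had no peak.

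The activating kinases and their partners had a peak in 3 of 6 cases (11.8 to 88.2%, which also holds 40.0%), with PLK1 at 1.69, AURKA at 2.33 and BORA at 2.64 in a shared region, while CDK7, CCNH and MNAT1, which form the CDK-activating kinase, had none. For MASTL, the kinase that restrains PP2A in mitosis, 1 peak of 2.30 was listed in a shared region, and the PP2A subunit gene PPP2R2D stood at 6.27 with an adjusted p of 5.01e-82. The MASTL substrate genes ENSA and ARPP19 had no peak, nor did PPP2R2A, PPP2CA and PPP2CB. Among genes of the G2 checkpoint, ATR (3.76) and SFN (3.23, with p listed as 0) had a peak, and CHEK1, CHEK2, ATM, GADD45A and YWHAE had none. Of 8 other partners, relatives and inhibitors of CDKs, CCNB3 (11.3, with an adjusted p of 0.0407) and CDKN1B (1.43) had a peak. CDK2, CCNA1, CKS1B, CKS2, WEE2 and CDKN1A had none. Among phosphatase and nuclear transport genes, CDC14B (5.44) and PPP1R8 (1.54) had a peak, and CDC14A, PPP1CA, KPNB1 and XPO1 had none. Counting genes not named here, the G2 checkpoint had a peak in 2 of 8 cases, as did the other CDK partners, relatives and inhibitors (3.2 to 65.1% each). MASTL with the PP2A genes had 2 of 7, as did the phosphatase and transport genes (3.7 to 71.0% each). The shares of these roles were below the background of 40.0%, which each interval holds.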

How the data were processed

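The values came from 1 deposited peak list of the YTHDF3 RIP library over the input library of KYSE30 cells. Per the labels' protocols, random hexamers primed the cDNA of fragmented RNA, adapters carried molecular identifiers, and reads were pairs of 150 bases. The build was hg38, per the submitters' processing notes. Per the file headers, each deposited peak has a fold enrichment (a ratio), a p-value and an FDR, called the adjusted p here. How the FDR was derived is not given, and it does not follow from the listed p alone. At the same listed p of 0.00398 it was 0.0191 for a KREMEN2 peak and 0.0407 for a GTSE1 peak. For the aligner, caller, annotation and strand setting, the sources used here give nothing. Starts, counted from 0 in the file, are printed from 1, since 786 lay 1 below their gene's start and 68 equalled it. Names were matched to RefSeq genes of GRCh38.p14 on the same chromosome within 100000 bases; 1145 peaks stayed unmatched. A shared region has at least 1 base in a peak of another gene.

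Counts, exact intervals and medians were computed with Python 3.11.15, pandas 2.3.3 and SciPy 1.17.1. The matching and counting steps were checked on simulated peaks. All 10 members are named with every peak, and the other 50 genes by best fold enrichment, except a few that are not reported here. The members and lists were chosen with earlier results of these data known. No test between groups was possible, and a peak's own p, whose test is not given, rests on 1 library of each kind. The planned search of m6A-type words across whole regions was not done for want of a genome sequence, and was replaced by the first 50 transcribed bases. The sequence tables matched 8 of the 10 members; WEE1 and PKMYT1 are named only. Stricter thresholds, other summaries per gene and other name rules were tried.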

Additional observations from a re-analysis of the deposited data

How the results depend on the processing

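No paired analysis was possible because the results come from no test, with 1 library of each kind. The number of members with a peak was 6 as reported, 6 with an adjusted p under 0.05 or with older symbols, 5 with at least 2-fold, 5 without shared regions, 4 with at least the median fold enrichment, and 7 with any peak over the gene. The median best fold enrichment of the members with a peak, 6.38, became 4.39 for the peak with the smallest p, 2.315 for the median over a gene's peaks and 5.02 without shared regions. That of the 50-gene list, 5.07, became 3.22 and 3.79 under the first and second of these. The share of protein-coding genes with a peak, 40.0%, was 34.0% with an adjusted p under 0.05, 37.7% with at least 2-fold, 28.7% with at least the median fold enrichment and 35.3% without shared regions. The list's count of 22 was 13 with at least the median fold enrichment, 19 with at least 2-fold and 18 without shared regions. Each change follows from the peaks left in or the summary used. Depth is unknown, so no precision can be given for a fold enrichment.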
